A study of Mus musculus with 20 samples.

Results

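Acta1, the skeletal muscle alpha-actin gene, was higher in every heart library labelled KO than in every library labelled WT, a separation that held for 1 of all 15187 genes tested (0.00658%). The genes followed here were Acta1, Actc1, Acta2, Nppb, Myh6, Myh7, Ankrd1, Rcan1, Gdf15 and Ctgf. These 10 rows were taken by gene name from the 29339 genes of the deposited table, and all 10 passed the filter on low values (10 counts or more in 3 libraries or more), as did 15187 genes in all. Acta1 and Actc1 were chosen by their values in the comparison of KO with WT, so their values in it are given as a description, with no test.

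The libraries were made from heart tissue of C57BL/6 mice aged 8 weeks. The WT group was wild type, and the KO group was labelled TECRL-/-, a knockout of Tecrl, a gene of the endoplasmic reticulum linked to inherited arrhythmia. Of the 20 libraries, 5 were labelled male WT, 5 male KO, 3 female WT and 7 female KO. Their names fall into an S series (S1 to S12, 3 libraries per group) and a WT/TKO series (WT1, WT2 and TKO1 to TKO6), which has no library labelled female WT. The sources used here do not say what the series stand for. The methods describe libraries from single mice, but the labels tie no library to an animal, and the mice described are fewer than the libraries used here. The n given may thus exceed the number of animals, and p-values measure the spread between libraries, which may be technical.

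The adult ventricle is built on cardiac alpha-actin (Actc1) and, in the mouse, alpha-myosin heavy chain (Myh6). The fetal heart uses more of the skeletal and smooth muscle actins (Acta1, Acta2) and of beta-myosin heavy chain (Myh7), and it makes natriuretic peptides in the ventricle. Under pressure load or injury, adult cardiomyocytes turn parts of this program on again. Nppb encodes B-type natriuretic peptide, Ankrd1 a stretch-responsive protein of the sarcomere, Rcan1 a target and inhibitor of calcineurin, Gdf15 a stress-induced secreted factor and Ctgf a matricellular protein of fibrosis.

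The 3 actins are near copies, so it matters whether reads can be assigned to them. Their coding sequences have 1131 bases each. Acta1 and Actc1 are identical at 86.3% of these bases, Acta1 and Acta2 at 85.4%, and Actc1 and Acta2 at 82.6%. The first 60 coding bases are shown from the GENCODE M21 transcripts (GRCm38), with bases that differ from Acta1 in capitals.
Acta1: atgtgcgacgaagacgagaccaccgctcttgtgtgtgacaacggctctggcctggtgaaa
Actc1: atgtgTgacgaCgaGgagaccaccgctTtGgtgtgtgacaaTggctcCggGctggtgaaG
Acta2: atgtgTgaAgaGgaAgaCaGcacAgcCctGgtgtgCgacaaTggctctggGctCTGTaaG
Actc1 differs from Acta1 at 9 of these 60 bases and Acta2 at 17. No window of 150 bases, the read length, in the longest Acta1, Actc1 or Acta2 transcript occurred exactly in a transcript of another gene. The myosin pair is closer, with 91.5% identical coding bases, and 5.53% of such windows of Myh6 occurred in Myh7. Because Myh6 is far more abundant than Myh7, misassigned reads would weigh more on Myh7, and the size of that uncertainty was not measured.

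Acta1 (ENSMUSG00000031972) is at chr8:123891769-123894751 in GRCm38 and Actc1 (ENSMUSG00000068614) is at chr2:114047282-114053548, both on the minus strand. Both are protein coding, and no exon of either overlaps another annotated gene. The 250 bases before the start of Acta1, Actc1, Nppb and Ankrd1 are shown because the muscle actins are classic targets of serum response factor and TEAD factors, and because Nppb and Ankrd1 shared their highest libraries. The starts are those of RefSeq, not the GENCODE gene ends. The Actc1 and Ankrd1 windows lie within the GENCODE genes, the Nppb window runs into its gene, and the Acta1 window stops short of its gene. The sequences are from RefSeq (GRCm38.p6), with CArG boxes and MCAT elements (CATTCC or GGAATG, either strand) in capitals.
Acta1, chr8:123894776-123895025, minus strand: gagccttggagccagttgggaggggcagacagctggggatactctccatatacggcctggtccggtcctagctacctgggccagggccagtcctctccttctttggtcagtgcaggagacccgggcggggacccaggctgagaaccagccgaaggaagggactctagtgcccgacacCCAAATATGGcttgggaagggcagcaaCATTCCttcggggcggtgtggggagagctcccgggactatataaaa
Actc1, chr2:114052876-114053125, minus strand: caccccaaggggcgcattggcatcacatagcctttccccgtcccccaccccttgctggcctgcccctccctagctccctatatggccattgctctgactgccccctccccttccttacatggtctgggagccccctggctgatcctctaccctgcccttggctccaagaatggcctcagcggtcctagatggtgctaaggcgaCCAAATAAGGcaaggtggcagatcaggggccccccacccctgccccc
Nppb, chr4:147985650-147985899, plus strand: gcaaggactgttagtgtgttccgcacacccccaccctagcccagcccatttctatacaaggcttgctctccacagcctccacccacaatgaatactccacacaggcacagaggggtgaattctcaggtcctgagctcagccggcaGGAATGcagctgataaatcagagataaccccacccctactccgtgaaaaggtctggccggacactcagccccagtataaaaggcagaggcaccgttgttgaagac
Ankrd1, chr19:36119845-36120094, minus strand: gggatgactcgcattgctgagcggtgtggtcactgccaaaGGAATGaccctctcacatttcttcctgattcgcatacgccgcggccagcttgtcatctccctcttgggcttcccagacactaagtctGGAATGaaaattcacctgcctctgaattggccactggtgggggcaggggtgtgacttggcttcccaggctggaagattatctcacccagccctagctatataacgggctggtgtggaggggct
Acta1 carries both motifs in this window, Actc1 a CArG box, and Nppb and Ankrd1 MCAT elements. Of 32851 promoter windows of the same length, 1.47% hold a CArG box and 12.6% an MCAT element, and the motifs do not overlap each other in the sequences shown. Of the 9 genes with an entry, 2 had a CArG box and 7 an MCAT element in at least 1 window; Ctgf had no entry. A match is a description of letters only.

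Several facts of the libraries touch the values below. Counts per library ran from 12540002 to 20038593. Tecrl did not separate the labels, at 51.9 to 122.5 CPM (counts scaled to library size with edgeR's TMM factors) in WT and 60.3 to 99.4 CPM in KO, so the genotype labels could not be checked and groups are called by them. Xist, expressed from the inactive X chromosome, was 237.0 to 358.4 CPM in all 6 S series WT libraries, and the Y-linked genes were expressed in all 6 S series KO libraries, whatever their sex label. S4 to S9 thus went against their sex label, and in the S series genotype label and sex-linked expression cannot be told apart. Ventricular markers were high in all 20 libraries, at a summed 20555.4 to 38692.9 CPM. The atrial light chain gene Myl7 was at 691.2 to 2345 CPM in S7, S9, S11 and S12, at 77.4 to 183.1 CPM in S5, S6 and S10, and under 10 CPM in the other 13.

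In the WT libraries, Acta1 was 83.0 CPM at the lowest (WT1), 114.2 at the median and 286.4 at the highest (WT2). In the KO libraries it was 292.6 CPM at the lowest (TKO3), 461.5 at the median and 1054 at the highest (S6). The groups did not overlap, but the gap between WT2 and TKO3 was small beside the spread within each group. The WT mean was 149.8 ± 73.8 CPM (SD, n = 8). The KO mean was 477.8 ± 205.9 CPM (SD, n = 12), or 3.19 times as high. Of 15187 genes tested, Acta1 was the only one that lay higher in all KO than in all WT libraries (0.00658%), and 0 genes (0%) lay lower throughout. With library series and sex label as covariates, the log2 fold change of Acta1 was 1.71, with a standard error (SE) of 0.28. It was 1.55 without S6 and 2.07 without WT2.

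Within each set of libraries that shares a series and a sex label, Acta1 was higher in KO. This follows from its separation over all 20 libraries, so it adds no support. In the S series labelled male, Acta1 was 94.8, 119.2 and 202.5 CPM in S7, S8 and S9 against 429.7, 493.2 and 496.1 CPM in S10, S11 and S12. In the S series labelled female it was 94.1, 109.1 and 209.1 CPM in S2, S1 and S3 against 383.2, 583.6 and 1054 CPM in S4, S5 and S6. Every KO value in these sets was above every WT value. The log2 fold changes were 1.77 (SE 0.44) and 2.29 (SE 0.44). In the WT/TKO series labelled male, WT1 and WT2 had 83.0 and 286.4 CPM, and TKO5 and TKO6 had 527.4 and 343.4 CPM. The log2 fold change there was 1.24 (SE 0.53), and it was 0.60 without WT1 and 2.39 without WT2, so its size depended on which WT library was kept. Non-overlap was common in sets this small. It held, higher in KO, for 5.59%, 8.57% and 14.2% of all genes in the 3 sets, and, lower in KO, for 3.97%, 8.14% and 12.1%.

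**Figure D1:**
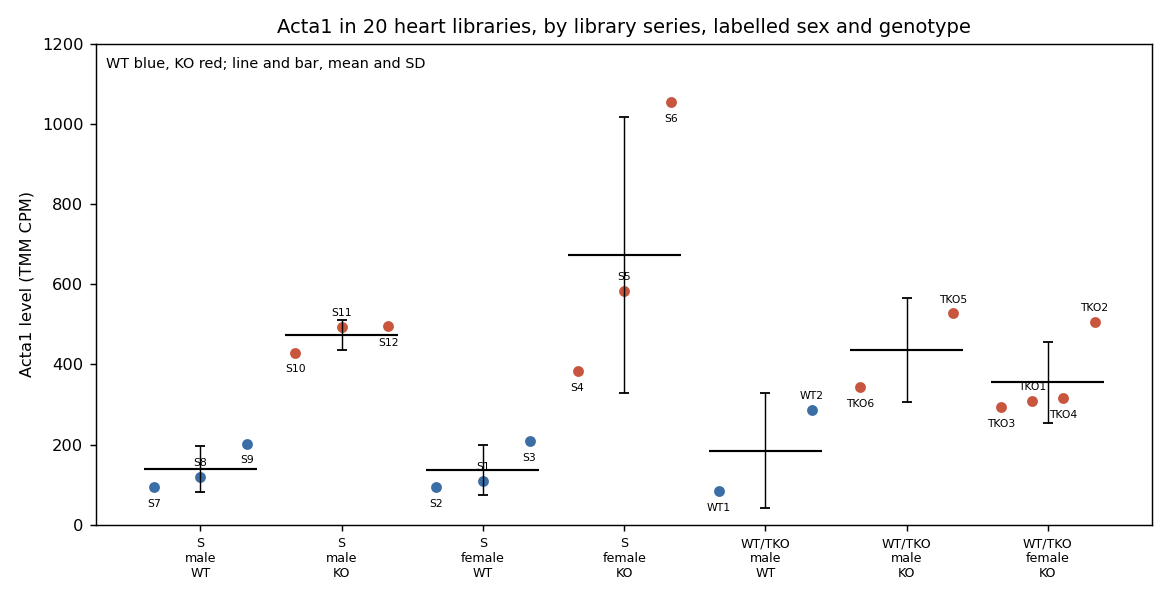
Acta1 in CPM (vertical axis) for each of the 20 libraries, grouped by library series, labelled sex and genotype; points are libraries, lines are means and bars are SD. The 12 KO libraries sit between 292.6 and 1054 CPM, and the 8 WT libraries between 83.0 and 286.4 CPM.

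The order of group means was S female KO, S male KO, WT/TKO male KO, WT/TKO female KO, WT/TKO male WT, S male WT and S female WT, by label. The means were 673.7 ± 344.5 CPM (SD, n = 3), 473.0 ± 37.5 CPM (SD, n = 3), 435.4 ± 130.1 CPM (SD, n = 2) and 355.5 ± 100.8 CPM (SD, n = 4) in the KO groups. They were 184.7 ± 143.9 CPM (SD, n = 2), 138.8 ± 56.5 CPM (SD, n = 3) and 137.4 ± 62.5 CPM (SD, n = 3) in the WT groups. Neighbours within the KO groups overlapped in range, as did those within the WT groups. Among the libraries with Xist, Acta1 averaged 138.1 ± 53.3 CPM in WT (SD, n = 6, all S series) and 355.5 ± 100.8 CPM in KO (SD, n = 4, all WT/TKO series). With Y-linked expression in place of sex label as covariate, the log2 fold change of Acta1 was 1.49.

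Acta1 is the main actin of skeletal muscle, so markers of that tissue were read in each library. Their summed level was 15.2 to 36.6 CPM in WT (median 17.1) and 19.0 to 32.4 CPM in KO (median 24.6). Myh1, Myh2 and Myod1, which define fast skeletal fibres and myoblasts, were at 0.22 CPM or less in all 20 libraries. Myh4 reached 6.27 CPM in 1 WT library, S2, which was among the lowest in Acta1, and at most 0.0687 CPM in KO. Of 7 testable markers, 2 were higher and 5 lower in KO by sign, with a median log2 fold change of -0.22. Mybpc2, a fast-type myosin-binding protein, was the marker that moved with Acta1, at 3.62 to 10.4 CPM in WT and 7.30 to 21.3 CPM in KO (log2 fold change 0.90, SE 0.17, adjusted p = 0.121 in edgeR). Over the 20 libraries it was called by DESeq2 and, in edgeR, without the filter on low counts. It was 1 of the 12 genes called in the S series labelled female (log2 fold change 1.30, adjusted p = 0.0389). Those 12 include the sex-linked genes Xist, Ddx3y, Eif2s3y, Uty and Kdm5d. The part of skeletal muscle cells in the Acta1 difference was not tested.

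The other actins did not separate the genotypes as Acta1 did. Actc1, the adult cardiac isoform, had 5764 CPM at the lowest, 7681 at the median and 9719 at the highest in WT. In KO it had 7450.5, 8236 and 10455 CPM. The groups overlapped over most of their range, though 11 of 12 KO libraries lay above the WT median and 3 above every WT library. The log2 fold change was 0.12 (SE 0.12). Acta2, the smooth muscle actin, had 136.6 to 295.0 CPM in WT (median 224.9) and 87.5 to 247.8 CPM in KO (median 170.5), with 1 of 12 KO libraries above the WT median. Its log2 fold change was -0.29 (SE 0.16, adjusted p = 0.996 in edgeR). In the S series labelled male it was -0.67 (unadjusted p = 0.0133, adjusted p = 0.617), and in the WT/TKO series 0.12 (adjusted p = 1). Without the KO library S10 it was -0.16 over 20 libraries and -0.40 in the S series labelled male. Smooth muscle markers were at a summed 249.8 to 423.4 CPM in WT and 234.4 to 490.3 CPM in KO. Of 6 tested, 3 were higher and 3 lower in KO by sign over 20 libraries. In the S series labelled male 5 were higher and 1 lower (median log2 fold change 0.16). In whole tissue, fewer smooth muscle cells and less Acta2 RNA per cell cannot be told apart.

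Per gene length, Acta1 was far below Actc1 in every library. In FPKM, which divides by length, Acta1 averaged 98.7 ± 49.7 (SD, n = 8) in WT and 310.4 ± 132.9 (SD, n = 12) in KO, while Actc1 averaged 4778 ± 998.3 and 5390 ± 619.8. By the same measure Acta1 was above Acta2 in every KO library, at 195.1 to 678.7 FPKM against 48.0 to 137.6 FPKM, while in WT their ranges overlapped. Acta1 was 0.906% to 3.61% of the sum of Acta1 and Actc1 in WT (median 1.48%) and 3.08% to 9.73% in KO (median 5.33%). Unlike the level, the share overlapped between groups. The WT libraries S3, WT2 and S9 had shares of 3.61%, 3.58% and 3.57%, above TKO1 and TKO4 at 3.10% and 3.08%.

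The myosin heavy chains gave the other isoform pair of the fetal program. Myh6 was 10667 to 17533 CPM in WT and 11431 to 22503 CPM in KO, with a log2 fold change of 0.00039 (SE 0.12, adjusted p = 0.999 in edgeR). Myh7 was 97.1 CPM at the lowest, 131.8 at the median and 885.8 at the highest in WT, and 82.7, 143.2 and 215.3 CPM in KO. The highest WT value was S7, far above the other 7 WT libraries, and the groups overlapped. The log2 fold change of Myh7 was -0.54 (SE 0.40, adjusted p = 0.996 in edgeR), and it was 0.02 without S7. Myh7 exons overlap those of Mhrt, Gm29015 and Gm31251 on the opposite strand. The library kit does not mark strand, so reads of the overlapping exons cannot be told apart by strand. Mhrt was at 5.0 to 40.2 CPM. Exons of Myh6 also overlap Gm49130, and those of Ctgf overlap Gm15270, each on the opposite strand.

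The Myh7 share of Myh6 and Myh7 FPKM was 0.498% to 5.19% in WT (mean 1.35%, n = 8) and 0.492% to 1.29% in KO (mean 0.780%, n = 12). The difference was -0.572 percentage points (exact permutation test, two-sided, p = 0.173), and -0.0242 without S7. Within the S series the differences were -1.29 points in libraries labelled male (exact p = 0.8) and -0.295 points in those labelled female (exact p = 0.3), and in the WT/TKO series 0.0481 points (exact p = 1.0). With 3 against 3 libraries the smallest exact p is 0.1, and with 2 against 2 it is larger still, so these sets cannot reach 0.05. No rise of the beta share in KO was detected in any of these comparisons.

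**Figure D2:**
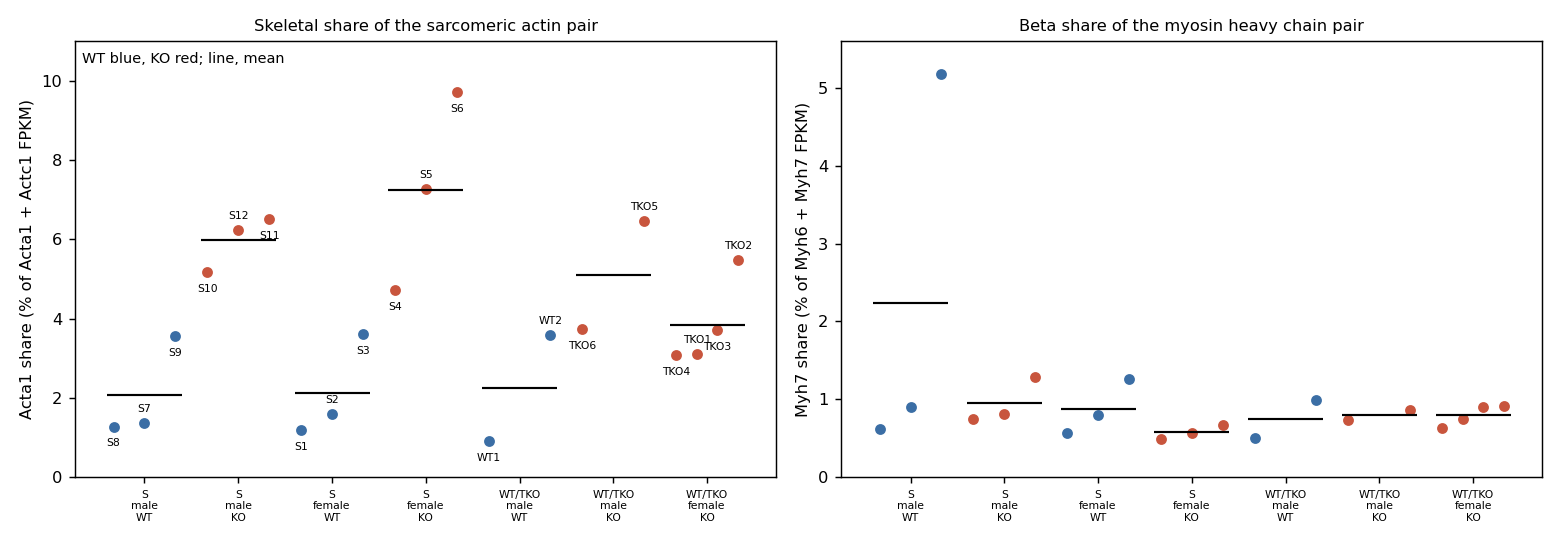
Left, Acta1 as percent of Acta1 and Actc1 FPKM, and right, Myh7 as percent of Myh6 and Myh7 FPKM, for each library (points; lines are group means). The Acta1 share is 3.08% or more in all KO libraries, while the Myh7 share is at most 1.29% in every library but S7, at 5.19%.

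Nppb spanned the widest range of the 10 genes, 64.0-fold between libraries, and the range did not follow genotype. It was 26.1 CPM at the lowest, 76.7 at the median and 1668 at the highest in WT, and 32.3, 98.1 and 605.6 CPM in KO. Its 4 highest libraries were S9, S7, S11 and S12 at 1668, 1335, 605.6 and 255.4 CPM, and the other 16 ranged from 26.1 to 142.0 CPM. These are the 4 libraries with at least 500 CPM of Myl7, 2 of them labelled WT and 2 KO. The log2 fold change of Nppb was -0.37 (SE 0.77, adjusted p = 0.996 in edgeR), and it was 0.24 without these 4 libraries.

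Ankrd1 had the same 4 highest libraries. In S7, S9, S11 and S12 it was 5076, 3612, 2936 and 1122 CPM, and in the other 16 it ranged from 174.8 to 887.9 CPM. Medians were 317.7 CPM in WT and 528.0 CPM in KO, while the means ran the other way, at 1297.5 ± 1921.5 CPM (SD, n = 8) in WT and 726.1 ± 748.9 CPM (SD, n = 12) in KO. The log2 fold change was 0.32 (SE 0.57, adjusted p = 0.996), it was 0.86 without those 4 libraries, and it turned to -0.15 without the series covariate. With each library left out it ran from 0.09 (without S3) to 0.68 (without S7). Ctgf was highest in S7 at 1750 CPM, then in S9 at 591.2, S11 at 388.1 and TKO6 at 371.9 CPM, with medians of 171.1 CPM in WT and 178.0 CPM in KO. Its log2 fold change was -0.32 (SE 0.48, adjusted p = 0.996), and 0.17 without S7.

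The 4 libraries were read for other atrial genes. The summed level of 8 markers of atrial cardiomyocytes ran from 65.1 to 8174.5 CPM in WT and from 54.8 to 7822.9 CPM in KO. Bmp10 was at 2096, 1176 and 173.8 CPM in S7, S9 and S12 but at 0.0723 CPM in S11. The part of atrial tissue in the Nppb, Ankrd1 and Ctgf levels was not tested. Acta1 did not share this pattern. It was 94.8 to 496.1 CPM in the 4 libraries rich in Myl7 and 83.0 to 1054 CPM in the other 16, and none of its 4 highest libraries was among them. Its log2 fold change was 1.72 without those 4 libraries and 1.30 without the 7 with at least 10 CPM of Myl7.

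**Figure D3:**
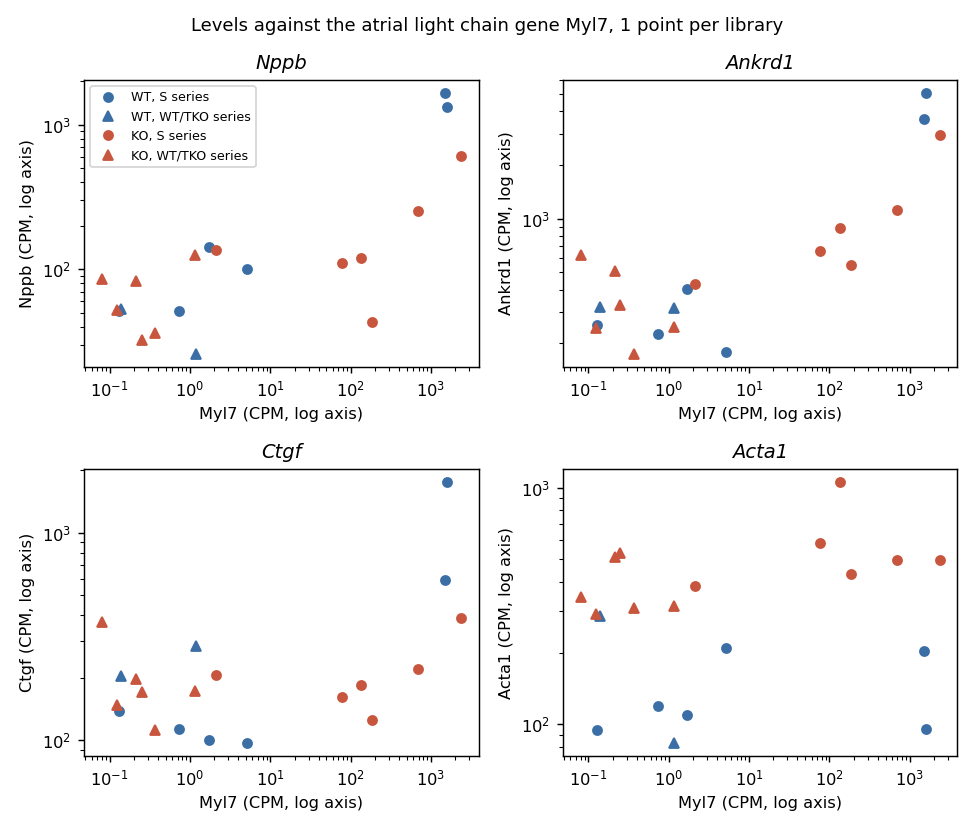
Nppb, Ankrd1, Ctgf and Acta1 (CPM, log axis) against Myl7 (CPM, log axis), 1 point per library, WT in blue and KO in red. Nppb and Ankrd1 are highest in the 4 libraries with Myl7 of 500 CPM or more, while Acta1 divides by genotype at low and at high Myl7.

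Rcan1 and Gdf15 overlapped between the groups. Rcan1 was 55.3 to 331.7 CPM in WT (median 138.8) and 99.2 to 334.5 CPM in KO (median 170.8), with a log2 fold change of 0.28 (SE 0.30, adjusted p = 0.996 in edgeR). Gdf15 was low, at 0.371 to 3.17 CPM in WT (median 1.23) and 0.50 to 2.98 CPM in KO (median 0.861). It had 6 counts in its lowest library, the fewest of the 10 genes, so its values carry the most counting noise. Its log2 fold change was -0.11 (SE 0.31, adjusted p = 0.996). Over the 20 libraries, 0 of the 8 genes that could be tested passed an adjusted p of 0.05, where 0 of all 15187 genes (0%) passed. At an unadjusted p under 0.05 there were 748 of all genes, and DESeq2 called 12 after adjustment. None of the 8 was in either.

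**Figure D4:**
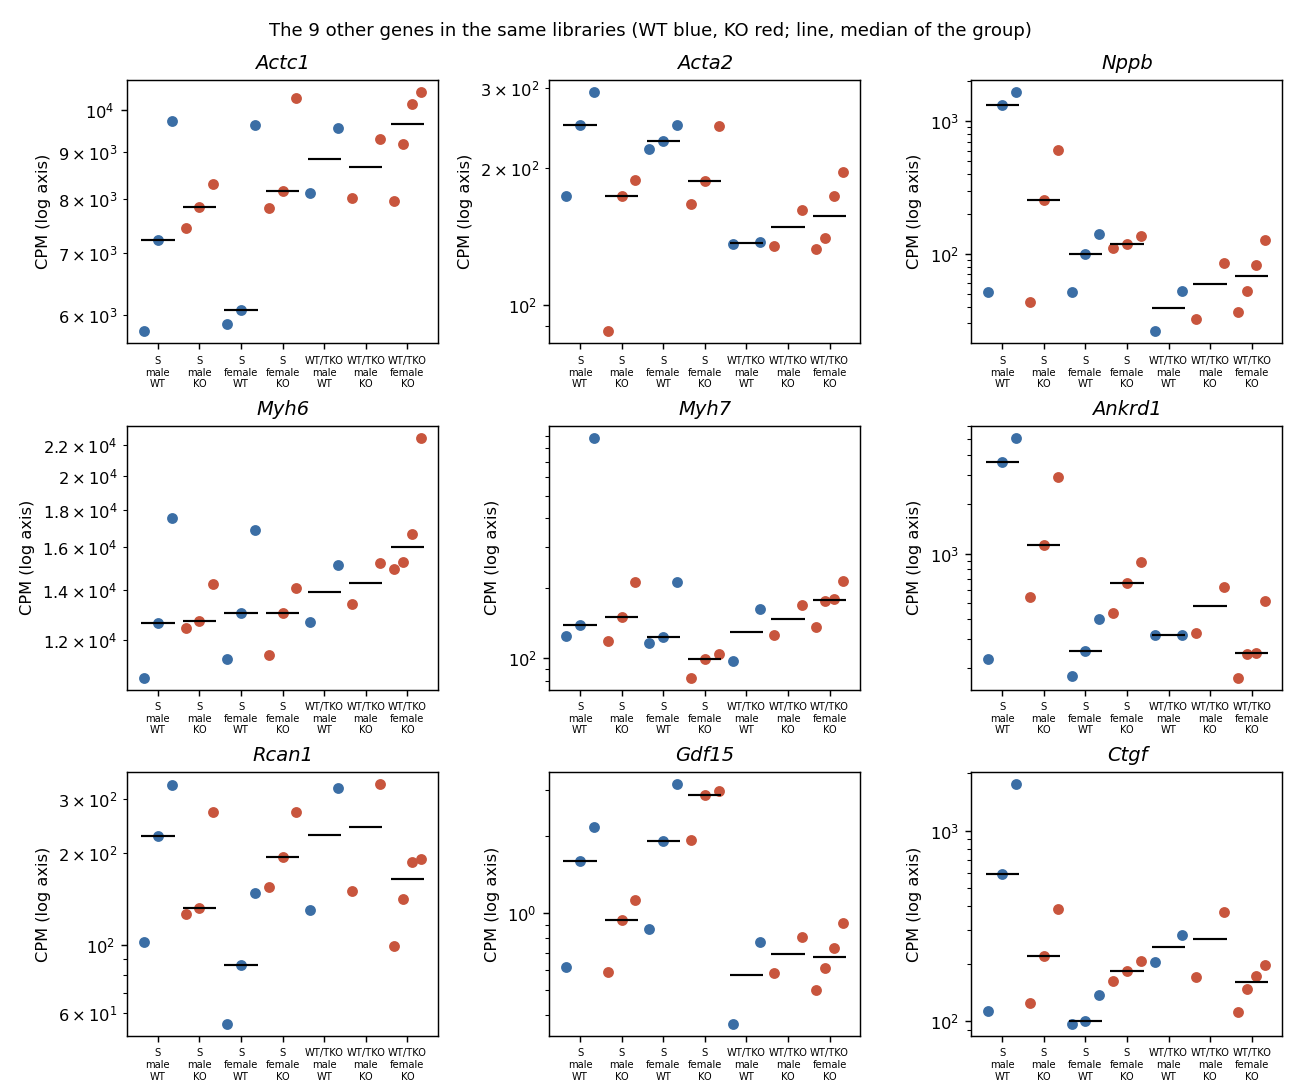
CPM (log axis) of the 9 other genes for each library, by series, labelled sex and genotype, with the median of each group as a line. WT and KO points overlap in all 9 panels over the 20 libraries.

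In the S series libraries labelled female, Ankrd1 was 178.5, 252.9 and 400.6 CPM in WT and 430.7, 660.8 and 887.9 CPM in KO. Rcan1 was 55.3, 86.3 and 147.7 CPM in WT and 154.9, 193.5 and 271.5 CPM in KO. Ctgf was 96.9, 100.4 and 137.5 CPM in WT and 161.9, 183.6 and 206.4 CPM in KO. These 3 genes lay higher in every KO library of the set, as 8.57% of all genes did. Myh7 lay lower, at 82.7 to 104.0 CPM against 116.3 to 212.6 CPM, as 8.14% of all genes did. The log2 fold changes were 1.25 for Ankrd1, 1.10 for Rcan1, 0.72 for Ctgf and -0.66 for Myh7, and the lowest adjusted p among them was 0.277 in edgeR. Of all genes 0.079% passed in this set, sex-linked genes among them. With no filter on low counts, Ankrd1 (adjusted p = 2.35e-05), Rcan1 (2.73e-05) and Ctgf (0.032) passed, where 2.38% of all genes did. Myl7 was 77.4 and 134.8 CPM in the KO libraries S5 and S6 and at most 5.11 CPM in S1 to S4. Its part in the differences was not tested.

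In the S series labelled male, Ctgf had a log2 fold change of -1.74 (SE 0.60, unadjusted p = 0.00932, adjusted p = 0.586), Nppb of -1.76 (adjusted p = 0.703), Myh7 of -1.25 (adjusted p = 0.689) and Ankrd1 of -0.95 (adjusted p = 0.784). All of these genes overlapped between WT and KO. Of all genes 0.0329% passed in this set, all of them sex-linked (Xist, Ddx3y, Eif2s3y, Uty and Kdm5d). S7 and S9, both WT and rich in Myl7, held the highest Nppb, Ankrd1 and Ctgf levels of the set. Without S7 the change of Ctgf was -0.53 and that of Myh7 was 0.29, and without S8 that of Ctgf was -2.26 (adjusted p = 0.0376, where 0.225% of all genes passed). That of Ankrd1 ran from -1.83 (without S11) to -0.32 (without S7). That of Nppb ran from -2.77 (without S11) to -1.20 (without S9). With no filter on low counts, Nppb, Ctgf, Myh7, Ankrd1 and Acta2 passed in this set, with adjusted p from 3.21e-12 for Ctgf to 0.0467 for Acta2, at nearly the same fold changes and on the same overlapping values, where 1.31% of all genes passed.

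The genotype effect in the S series libraries labelled female, minus that in those labelled male, was tested directly. Both label sets hold Xist-expressing WT and Y-expressing KO libraries, so this is a difference between label sets and not between expressed sexes. It was 2.46 for Ctgf (SE 0.84, unadjusted p = 0.00863, adjusted p = 0.323), 2.20 for Ankrd1 (adjusted p = 0.364) and 1.42 for Rcan1 (adjusted p = 0.363), all log2 differences from edgeR. None passed after adjustment, as 0% of all genes did. In the WT/TKO series labelled male, Ankrd1 was 316.8 and 318.6 CPM in WT and 326.7 and 627.2 CPM in KO, without overlap and higher in KO, as were 14.2% of all genes. No other gene of the 9 was free of overlap there, and the tested genes had an adjusted p of 1 (0% of all genes passed).

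**Figure D5:**
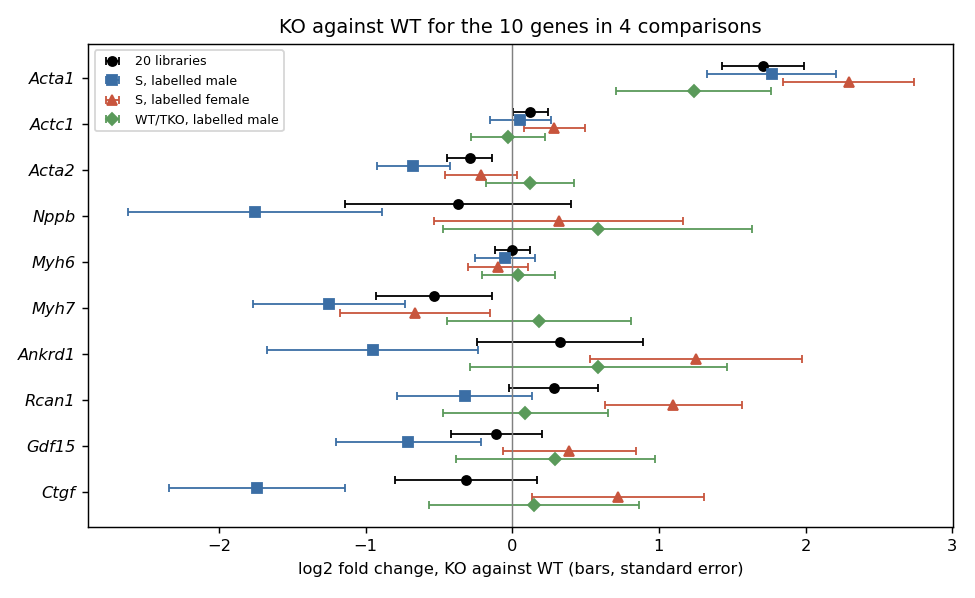
Log2 fold change of KO against WT (horizontal axis, bars are standard errors) for the 10 genes over 20 libraries and in each set of libraries. Acta1 is at 1.24 or higher in all 4 comparisons, and Nppb, Ankrd1, Rcan1, Gdf15 and Ctgf lie on different sides of 0 in the S series labelled male and labelled female.

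The KO libraries of the S and WT/TKO series were compared as a contrast that the choice of genes did not use. All 6 of the S series were Y-expressing and 4 of the 6 in the WT/TKO series were Xist-expressing, so series and sex-linked expression are partly confounded in it, and the labelled-sex groups do not remove this. Gdf15 was 0.587 to 2.98 CPM in the 6 S series KO libraries and 0.50 to 0.918 CPM in the 6 of the WT/TKO series. Its log2 difference was 1.12 (SE 0.38, adjusted p = 0.0889 in edgeR). The differences were 1.43 for Ankrd1 (adjusted p = 0.123), 1.53 for Nppb (adjusted p = 0.166) and 0.52 for Acta1 (SE 0.31, adjusted p = 0.345). None of the 10 passed, where 5.48% of all genes did. Of the 8 atrial markers 5 passed, all higher in the S series. Of the 6 macrophage markers, 6 were higher in the S series by sign and 3 passed, Csf1r (0.71, adjusted p = 0.00571), C1qa (0.64, adjusted p = 0.0144) and C1qb (0.61, adjusted p = 0.00426). Their summed level was 190.3 to 333.2 CPM in the S series KO libraries and 150.5 to 182.6 CPM in those of the WT/TKO series. Of 6 smooth muscle markers 3 were higher and 3 lower by sign, and 1 passed, Cnn1 (1.40, adjusted p = 0.0428). One marker each of skeletal muscle, Neb (-0.73, adjusted p = 0.0335), ventricular cardiomyocytes, Mybpc3 (-0.52, adjusted p = 0.0456), and endothelium, Cldn5 (-1.28, adjusted p = 0.0499), passed lower in the S series. The part of these cell types in the differences was not tested.

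The wider program was read from 128 genes in 9 lists, of which 122 were tested. In KO against WT over 20 libraries, 73 were higher and 49 lower by sign, with a median log2 fold change of 0.05 beside -0.01 over all genes. None passed after adjustment. At the thresholds of the study (unadjusted p under 0.05, log2 fold change of 0.58 or more in size), 4 were higher, where 0.876% of all genes were, and 1 was lower, where 1.06% were. The 4 include Acta1, which was chosen by this comparison, and the others were Xirp2 (0.59, adjusted p = 0.743), an actin-binding protein of the intercalated disc, Lmcd1 (0.65, adjusted p = 0.996), a LIM protein, and Cilp (0.80, adjusted p = 0.973), a matrix protein. Mstn, which encodes myostatin, was lower (-1.16, adjusted p = 0.996) at under 1 CPM on average.

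The lists are given by their sign counts over 20 libraries, beside 7163 of 15187 genes with a positive sign. Of the 14 stretch-responsive and Z-disc genes, 11 were higher, with a median of 0.26, and Xirp2 averaged 300.2 ± 100.9 CPM over the KO libraries (SD, n = 12) against 218.3 ± 60.8 CPM (SD, n = 8). Of the 18 matricellular and fibrosis genes, 15 were higher, with a median of 0.12. The 14 actins and serum response factor partners were split 7 to 7 (median 0.06), the 12 sarcomere isoforms 6 to 6 (median -0.0019) and the 19 calcineurin, NFAT and MEF2 genes 12 to 7 (median 0.0043). Of the 7 natriuretic peptide genes 3 were higher (median -0.02), of the 14 secreted stress and growth factors 8 (median 0.11), of the 13 integrated stress response genes 7 (median 0.0077) and of the 12 genes that commonly fall in hypertrophy 5 (median -0.04). These counts did not all hold within the sets, given in the order S labelled male, S labelled female and WT/TKO labelled male. Of the 122 genes, 59, 78 and 74 were higher, beside 7405, 7231 and 7788 of 15187. The counts were 2, 8 and 11 for the secreted factors and 10, 13 and 15 for the fibrosis genes. They were 10, 11 and 12 for the stretch-responsive genes and 3, 9 and 2 for the genes that fall in hypertrophy. The genes named next are again over 20 libraries. Examples with the smallest unadjusted p in their lists were Actg1, a cytoplasmic actin (-0.26), Tnnt1, the slow skeletal troponin T (-0.39), Npr2, a natriuretic peptide receptor (-0.08), and Nppa, the atrial natriuretic peptide (0.65, SE 0.92). Nppa and the atrial light chain gene Myl4 (1.55, SE 1.15) had lower means in KO than in WT, at 109.0 against 184.8 CPM and 345.3 against 466.1 CPM, so their fitted signs ran against the group means. Nppa was highest in the Myl7-rich libraries S7 (911.7 CPM) and S11 (1047 CPM). Others were the calcium channel Trpc1 (-0.22), Mef2a, a muscle transcription factor (-0.17), Fgf2, a growth factor (0.23), and Tgfb1 (0.28). The last were Sesn2, a stress response gene (-0.53), Mthfd2 (0.34) and Ppara, a regulator of fatty acid oxidation (-0.47). The first values in parentheses are log2 fold changes, and each gene had an adjusted p of 0.996 in edgeR.

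Between the KO libraries of the series, 8 of the 122 program genes passed, all higher in the S series, where 2.92% of all genes were called higher and 2.55% lower. They were the atrial light chains Myl7 and Myl4, the stress response genes Ddit3, Nupr1 and Mthfd2, and Fhl1, Tgfb3 and Actg2. Mthfd2, a mitochondrial folate enzyme, differed by 1.14 (adjusted p = 0.0126 in edgeR) and Ddit3, a transcription factor of the integrated stress response, by 0.78 (adjusted p = 0.0104). The atrial and macrophage markers and sex-linked expression given above for this contrast moved with these genes, and their part was not tested.

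Whether the other genes vary with Acta1 from library to library was read within each genotype, because Acta1 separates the genotypes. Among the 12 KO libraries Gdf15 had the highest r with Acta1 (Pearson 0.693, permutation p = 0.0106, adjusted over 9 pairs 0.0957; Spearman 0.587, permutation p = 0.0488, adjusted 0.22). Without S6 and TKO3, the farthest from the median, r was 0.401. For Ankrd1, r was 0.547 (permutation p = 0.0702, adjusted 0.316) and rho 0.629 (permutation p = 0.0326, adjusted 0.22), and r was 0.55 without the same pair. Both Gdf15 and Acta1 had higher fitted levels in the S series KO libraries, so the relation was read within each series. For Gdf15, r was 0.604 and rho 0.657 in the S series (exact permutation p = 0.193 and 0.175, n = 6) and 0.351 and 0.371 in the WT/TKO series (exact permutation p = 0.447 and 0.497, n = 6). For Ankrd1, r was 0.171 and 0.501 in the same series (exact permutation p = 0.703 and 0.299, n = 6 each). Acta2 had the smallest p in the S series (rho 0.886, exact permutation p = 0.0333, adjusted 0.3; r 0.656, exact permutation p = 0.204), and Actc1 the highest r (0.786, exact permutation p = 0.142; rho 0.0857). In the WT/TKO series r was -0.659 for Acta2 (exact permutation p = 0.185) and -0.368 for Actc1 (exact permutation p = 0.479). No adjusted p over the 9 genes was below 0.3 within a series. Among the 8 WT libraries no adjusted p was below 0.892 (exact permutation over 9 pairs). No pair passed after adjustment.

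The genes whose log2 CPM was most like that of Acta1 over the 20 libraries included Cnksr1 (r = 0.828), a scaffold protein, and Tspan17 (0.81), a tetraspanin. Others among the first 10 were Ackr4, CT030155.1, Cpxm2, Dguok, 1110019D14Rik, Gm527 and Cuzd1 (0.771 to 0.707). These r values are descriptions over libraries that share the genotype split. Cnksr1 was 4.26 to 13.0 CPM in WT and 11.7 to 26.9 CPM in KO. None of the 9 other genes was near the top of this order. The highest was Actc1, with r = 0.21 at rank 2674.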

How the data were processed

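Polyadenylated heart RNA was sequenced in paired 150-base reads. Per the labels and the submitters' processing notes, the authors used HISAT2, HTSeq 0.6.1p2, DESeq2 1.26.0 and GRCm38. They deposited 1 table with read counts per gene, without normalization, and FPKM, which scales for gene length and depth. The library kit does not mark strand, and the strand setting of the counting is not given in the sources used here. Column names gave the sample for all 20 count and all 20 FPKM columns. Counts ran from 12540002 to 20038593 per library, and mitochondrial genes took 15.3% to 30.4%. In all 44 pairs within groups, counts differed by more than counting noise (lowest chi-square per degree of freedom 11.4).

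The 10 genes and the gene lists were chosen with earlier results of these data known. From the counts, edgeR 4.0.16 (TMM, quasi-likelihood test, Benjamini-Hochberg adjustment over 15187 genes) compared KO with WT with series and labelled sex as covariates, and by contrasts in a fit of 7 cells (labelled sex, genotype, series). The study's own design compared the genotypes within each sex with DESeq2. Standard errors are the fold change over the square root of F. FPKM gave shares of 2 genes and limma 3.58.1 on log2(FPKM + 1). Shares used exact permutation tests, and correlations in 12 libraries 100000 resamples. The tests were tried on simulated counts. Named genes were the 10, up to 2 genes per list with the smallest unadjusted p (or 3 per direction past an adjusted 0.05), the 10 most like Acta1, and sex-linked or cell type markers that moved with a result; the choice of Mybpc2, Bmp10 and the genes called between series came after seeing the values. Some genes that this rule names are not reported here. The alternatives were DESeq2 1.42.0, upper-quartile scaling, other filters, pseudocounts of 1 and 0.1, other covariates, subsets, and each library left out. R 4.3.3, Python 3.11.15, scipy 1.17.1, matplotlib 3.10.9 and Biopython 1.88 were used. Sequences and positions are from GENCODE M21, which holds 29328 of the 29339 gene identifiers, and RefSeq. Human cell data, blots and qPCR were not analysed here.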

Additional observations from a re-analysis of the deposited data

Results flagged for a closer look

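The 36 sets tested held 5 or 7 libraries each (10 genes and 2 shares, in each labelled group large enough). These groups pool both library series. In them, 4 values stood apart from the rest of their group by a gap test at the 95% level. Chance gives this in about 1 of 20 sets. Acta1 in S6, labelled female KO, was 1054 CPM, with a gap of 0.618 of the group's range. Myh7 in S7, labelled male WT, was 885.8 CPM, with a gap of 0.917. The Myh7 share in S7 was 5.19% (gap 0.895), and in S12, labelled male KO, it was 1.29% (gap 0.767). S7 and S12 are 2 of the 4 libraries with at least 500 CPM of Myl7.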

How the results depend on the processing

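No paired analysis was possible because replicate numbers were given in accession order and pair no libraries. The Acta1 fold change kept its direction under every alternative. Leaving out libraries cannot undo the separation of KO from WT, so the direction adds no support. With each library left out, the log2 fold change ran from 1.55 to 2.07 over 20 libraries. In the sets it ran from 0.60 (WT/TKO series labelled male, without WT1) to 2.73 (S series labelled female, without S3).

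The number of genes under an adjusted p of 0.05 moved more. DESeq2 called 12 over 20 libraries, 18 in the S series labelled male, 294 in that labelled female, 20 for the difference between sex labels and 1436 between the KO series. Without a filter on low counts there were 3, 383 and 699, then 18 in the WT/TKO series, 106 for the difference between series, 630 for that between sex labels and 1828 between the KO series. With at least 10 counts in every library there were 0 and 2 in the S series labelled male and female and 0 for the difference between series. Over 20 libraries, limma on log2(FPKM + 1), limma on log2(FPKM + 0.1) and genotype alone each called 1 gene. It was Acta1, which was chosen by this comparison, so the call is no evidence for it. The S series alone called 9, the libraries labelled female alone 8, and the libraries with Myl7 under 10 CPM 1, Serpina3k. The calls in the S series alone and in the libraries labelled female alone include Xist, Ddx3y, Eif2s3y, Uty and Kdm5d. Fits of only the libraries compared called 7 in the S series labelled female, 2 in the WT/TKO series and 1707 between the KO series. The causes were not tested.

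With each library left out, the count ran from 0 to 1 over 20 libraries, 5 to 34 (without S8) and 5 to 1358 (without S1) in the S series labelled male and female, 0 to 491 (without S1) for the difference between sex labels, 4 to 5 for that between series, and 146 (without TKO6) to 1243 (without S7) between the KO series. The Myh7 share difference ran from -0.694 to -0.0242 (without S7).

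Several values changed sign, none of them past the adjusted threshold as reported. Over 20 libraries Myh6 was -0.0097 with DESeq2, -0.0047 without a filter, -0.00029 with 10 counts in every library, -0.073 in the S series, -0.031 in male, -0.098 in female and -0.015 without the 4 libraries rich in Myl7. Nppb was 0.10 and 0.11 with limma, 0.58 in the WT/TKO series, 0.31 in female, 0.24 without those 4 and 0.49 without 7. Ankrd1 was -0.15 without the series term, -0.84 with genotype alone, -0.33 with Y-linked expression as covariate and -0.35 in male. Rcan1 was -0.14 with that covariate and -0.18 in male. Gdf15 was 0.15 with it, 0.30 in the WT/TKO series, 0.39 in female and 0.12 without the 4. Ctgf was 0.14 in the WT/TKO series, 0.72 in female, 0.30 without the 4 and 0.40 without 7. In the WT/TKO series Actc1 was -0.034, Acta2 0.11 and Myh7 0.18.

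Sign changes also came from single libraries. Myh7 in the S series labelled male, which passed without the filter on low counts (adjusted p = 9.62e-07), turned positive without S7. Over 20 libraries, Myh6 ran from -0.048 to 0.062, Myh7 from -0.75 to 0.016 (without S7), Ctgf from -0.50 to 0.17 (without S7), Nppb from -0.71 to 0.077 (without S9) and Gdf15 from -0.28 to 0.048 (without S2). In the S series labelled male, Actc1 ran from -0.11 to 0.28, Myh6 from -0.20 to 0.17, Myh7 from -1.67 to 0.29 and Rcan1 from -0.77 to 0.094, and in that labelled female Myh6 from -0.22 to 0.079. In the WT/TKO series, Actc1 ran from -0.14 to 0.092, Acta2 from -0.019 to 0.24, Nppb from -0.29 to 1.18, Myh6 from -0.082 to 0.18, Myh7 from -0.14 to 0.60, Rcan1 from -0.61 to 0.90, Gdf15 from -0.15 to 0.89 and Ctgf from -0.53 to 0.61. The Myl7 subsets and the correlations among KO libraries within each series were chosen after seeing the data.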
